A study of Mus musculus with 3 samples.

Results

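The genes followed here are 10 genes of sperm-egg fusion and of the equatorial membrane of the sperm head, chosen by symbol from the 31053 genes counted: Izumo1, Izumo2, Izumo3, Izumo4, Spaca3, Spaca4, Spaca6, Eqtn, Tmem95 and Dcst1. All 10 were found, and 9 of them reached a mean of 10 CPM (UMIs scaled to a common total) in round spermatids, Tmem95 being the exception. They were measured in single-cell RNA-seq of testicular cells of C57BL/6 mice aged 8 weeks by the labels, with 1 library each of WT, GRTH-KO (KO) and GRTH-KI (KI). GRTH, encoded by Ddx25, is an RNA helicase of germ cells. KO mice lack it, and KI mice carry a human GRTH with an arginine to histidine exchange and lack the phosphorylated form. The labels give 1 mouse per library, whereas the methods of the study describe pooled cells of more than 1 mouse and a wider age range. With 1 library per genotype no difference between genotypes has a replicate check, and no p-value or standard error is given.

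Fertilization ends with the fusion of the sperm plasma membrane with that of the egg. IZUMO1, which lies in the acrosomal membrane and reaches the sperm surface after the acrosome reaction, binds the egg receptor JUNO. Several further sperm membrane proteins, among them SPACA6, TMEM95, DCST1, DCST2, FIMP, SOF1 and TMEM81, are needed for fusion in mice. Their transcripts are made in the testis, in haploid round spermatids (RSs), before the histones of the spermatid are replaced by transition proteins and protamines and transcription ceases in elongated spermatids (ESs).

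Each captured transcript carried a unique molecular identifier (UMI) at its 3′ end, so a UMI counts a molecule and levels were not divided by gene length. All UMIs of a gene in a class were added up per library and given as CPM of that class. The intervals are 95% intervals for counting error only. Classes came from UMIs of marker genes that hold none of the 10 genes: spermatocyte-like (SP-like), transition cells with both spermatocyte and RS markers, and spermatid-like cells. The last were put in 5 stages by their packaging share, which is the percentage of a cell's UMIs from Prm1, Prm2, Tnp1 and Tnp2. RS-like cells of stages 1, 2 and 3 had under 0.5%, 0.5 to 4% and 4 to 16%, and ES-like cells of stages 4 and 5 had 16 to 32% and over 32%.

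The WT library held 82973909 UMIs, the KO library 91388296 and the KI library 73150373, and 5853, 4066 and 1571 cells were kept. Of these 1721, 1695 and 629 were RS-like. ES-like cells numbered 2153 in WT, 4 in KI and 0 of 4066 cells in KO, for which the exact upper limit is 0.0907%. Ddx25 had 0 UMIs at stage 1 of KO, against 141 CPM in KI and 166 CPM in WT. It was not wholly absent from the KO library, with 8.39 CPM in empty barcodes (those without a cell). Early germ cells of KO had 0.614 CPM of it in a class of 1629148 UMIs, too little to read as expression. Empty barcodes of KI had 117 CPM of it and those of WT 145 CPM. The source of these UMIs in KO was not tested. Kept barcodes were shared between WT and KO in 16 cases, between WT and KI in 36 and between KO and KI in 8. Without these barcodes, the ratio of Izumo4 over RS-like cells of KI was -0.56, inside the fold limit, and that of Tmem95 was 0.70, past it, so the KI counts given for RS-like cells became 0 lower and 1 higher. The counts for KO were the same. Stage 2 cells were shallow, with medians of 1410 (WT), 1446 (KO) and 1643 (KI) UMIs. At stage 1 the medians were 10960.5 (WT), 3058 (KO) and 7420 (KI), and at stage 3 they were 2702.5, 8125 and 6656. Of the stage 3 cells 42.8% (WT), 14.8% (KO) and 11.6% (KI) had under 2000 UMIs. At stage 3 the summed level of 8 Sertoli markers was 10.4 CPM (WT), 41.0 CPM (KO) and 78.4 CPM (KI), that of 6 macrophage markers was 16.1, 30.2 and 26.7 CPM, and the defining Leydig markers were between 0.298 and 6.61 CPM.

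Of the 10 genes, Izumo1, Izumo2 and Spaca4 lie on chromosome 7, Izumo3 and Eqtn on chromosome 4, Spaca3 and Tmem95 on chromosome 11, Izumo4 on chromosome 10, Spaca6 on chromosome 17 and Dcst1 on chromosome 3 (GENCODE M21, GRCm38). All 10 gene identifiers of the files match that annotation. Izumo1 spans 45621811 to 45628823 on the plus strand and overlaps Rasip1 on the same strand by 1336 bases, where reads cannot be told apart between the genes. Dcst1 (89350219 to 89365253, minus strand) overlaps its relative Dcst2 on the opposite strand by 3279 bases. Spaca4, a gene of a single exon of 707 bases (45725107 to 45725813, minus strand), lies wholly within Fam83e of the opposite strand, and the setting for strand in the counting is not given in the sources used here. Izumo4 spans 80702184 to 80705373 on the plus strand with no overlapping gene listed.

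The promoters are shown because most of the genes came on together in RS-like cells. RefSeq promoters (GRCm38.p6) were found for 8 of the 10 genes, all but Izumo4 and Eqtn. The cAMP response element (CRE), the binding site of the spermatid activator CREM, was searched on both strands in the 250 bases before the start site as TGACGTCA and as its half-site TGACG, which the full element contains. The full element was found for Izumo1 alone of the 8 and in 1.55% of all 32851 promoters. A half-site was found for Izumo1, Spaca3 and Tmem95, and in 17.8% of all promoters. The 250 bases follow for a pair of genes whose level collapsed in ES-like cells (Izumo1 and Spaca4) and a pair that stayed (Izumo2 and Izumo3), with half-sites in capitals, and for Spaca3 and Tmem95 the 30 bases around the match.
Izumo1, chr7:45621561-45621810, plus strand: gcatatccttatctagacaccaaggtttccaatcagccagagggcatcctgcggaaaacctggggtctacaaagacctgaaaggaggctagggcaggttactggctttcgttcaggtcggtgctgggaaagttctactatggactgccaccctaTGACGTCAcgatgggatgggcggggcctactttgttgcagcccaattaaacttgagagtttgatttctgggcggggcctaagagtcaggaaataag
Spaca4, chr7:45725817-45726066, minus strand: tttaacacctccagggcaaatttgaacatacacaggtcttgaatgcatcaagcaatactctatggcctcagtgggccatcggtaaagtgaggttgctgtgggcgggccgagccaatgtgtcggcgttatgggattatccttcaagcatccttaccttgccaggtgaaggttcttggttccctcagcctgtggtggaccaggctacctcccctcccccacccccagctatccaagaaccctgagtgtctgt
Izumo2, chr7:44708480-44708729, plus strand: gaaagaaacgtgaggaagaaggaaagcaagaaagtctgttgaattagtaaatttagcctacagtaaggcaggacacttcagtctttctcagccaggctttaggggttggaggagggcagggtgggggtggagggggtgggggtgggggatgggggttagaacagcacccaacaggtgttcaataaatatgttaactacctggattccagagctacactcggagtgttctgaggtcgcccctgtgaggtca
Izumo3, chr4:92147222-92147471, minus strand: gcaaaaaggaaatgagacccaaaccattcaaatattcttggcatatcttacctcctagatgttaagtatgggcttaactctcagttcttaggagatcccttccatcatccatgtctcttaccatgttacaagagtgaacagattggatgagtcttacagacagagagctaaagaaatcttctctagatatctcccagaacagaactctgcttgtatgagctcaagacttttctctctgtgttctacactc
Spaca3, chr11:80858289-80858318, plus strand: cacaggtgatctTGACGaagttccgtgagt
Tmem95, chr11:69878246-69878275, minus strand: ctttcagaaccaTGACGtgtaaaggccact
The first base of the CRE of Izumo1 lies 96 bases before the start site. These matches are letters in a window, and the series holds no measurement of binding.

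The first question is when in germ cell development the genes come on. In all 3 libraries, 9 of the 10 genes were nearly silent in SP-like cells, rose in transition cells and were highest in RS-like cells. Izumo4 differed and was already abundant in SP-like cells. For Izumo2 in WT the ES-like level was close, at 693 CPM at stage 5 against 696 CPM at stage 2. Its course there depends on the scaling, as given below. The log2 ratio of RS-like to SP-like levels had a median of 5.09 (WT), 5.21 (KO) and 6.08 (KI), and 9 of 10 genes were at least 1.5-fold higher in each library. Izumo4 was the 1 lower gene in KO. Over all genes with a mean of at least 10 CPM, 32.2% (WT), 34.4% (KO) and 34.7% (KI) were 1.5-fold higher and 47.4%, 47.1% and 46.3% lower.

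Izumo1, the sperm ligand of JUNO, had 2.61 CPM in SP-like cells of WT, 4.74 in KO and 1.76 in KI. In transition cells it had 33.4 CPM in WT against 52.3 in KO and 33.9 in KI, and at stage 1 it had 114 CPM in WT against 179 in KO and 169 in KI. It was highest at stage 2 in all 3 libraries, with 273 CPM (WT), 342 CPM (KO) and 323 CPM (KI). The order of the libraries at each of these steps put WT lowest from stage 1 on.

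Spaca3, which encodes a lysozyme-like protein of the acrosome, went from 18.0 CPM in SP-like cells of WT to 784 CPM at stage 1 and 1100 CPM at stage 2. KO had 19.8, 794 and 1066 CPM in the same classes, and KI had 7.22, 804 and 1003 CPM. Spaca4, a membrane-anchored protein with which sperm bind the zona pellucida, followed the same course and reached 1160 CPM in WT against 1224 CPM in KO and 1167 CPM in KI at stage 2. These were the most abundant of the 10 genes at stage 2 in every library.

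Eqtn encodes equatorin, a protein of the acrosomal membrane that remains on the equatorial segment. It had 4.15 CPM in SP-like cells, 36.7 CPM in transition cells, 192 CPM at stage 1 and 337 CPM at stage 2 of WT. In KO it reached 446 CPM and in KI 422 CPM at stage 2. Spaca6 and Dcst1, both needed for fusion after binding, were rarer: Spaca6 peaked at 138 CPM in WT and 119.9 CPM in KO at stage 2 and at 128 CPM in KI at stage 3. Dcst1 had 57.6 CPM in WT against 86.5 in KO and 83.2 in KI at stage 1.

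Tmem95, the rarest of the 10 genes, had 52 UMIs (WT), 81 UMIs (KO) and 77 UMIs (KI) at stage 1, or 6.73, 11.7 and 10.0 CPM. At stage 3 it was down to 2, 8 and 2 UMIs, so its transcripts were seen mainly in the youngest RS-like cells. Depth does not allow its level to be compared between genotypes at stages 2 and 3.

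Izumo2 and Izumo3 encode relatives of IZUMO1, and IZUMO3 is needed to build the acrosome. Izumo3 had its highest level at stage 1 in all 3 libraries, with 268 CPM in WT against 246 in KO and 263 in KI. Izumo2 was higher still after stage 1, from 410 CPM at stage 1 to 696 CPM at stage 2 in WT, and from 386 to 706 CPM in KO. Leaving aside the 4 stage 4 cells, it was highest in KI at stage 3, with 681 CPM against 420 CPM at stage 1.

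At stage 2 of WT the order of levels was Spaca4, Spaca3, Izumo2, Eqtn, Izumo4, Izumo1, Izumo3, Spaca6, Dcst1 and Tmem95. The counting intervals of Spaca4 and Spaca3 overlapped, as did those of Izumo4 and Izumo1 and of Izumo1 and Izumo3.

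**Figure D1:**
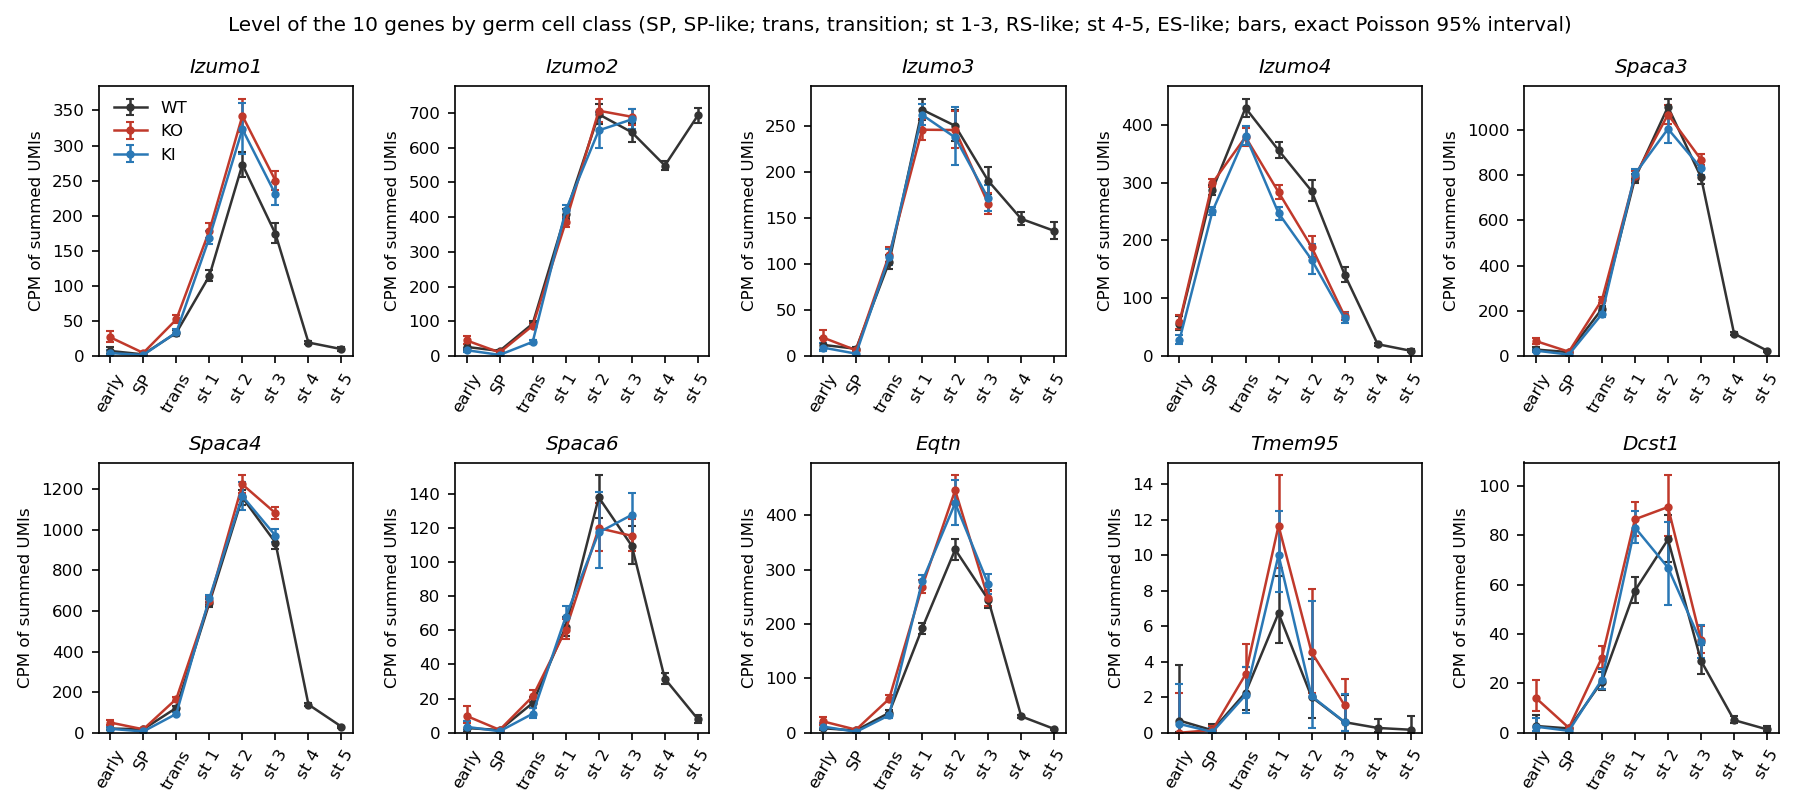
Level of each of the 10 genes (CPM of summed UMIs, linear axis from 0) by germ cell class in WT, KO and KI; points are class sums, bars are exact Poisson 95% intervals, and classes of under 50 cells are left out. Izumo4 is highest in transition cells, whereas the others rise after them, and only WT extends to stages 4 and 5.

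Free RNA, that is, transcripts from broken cells that enter every droplet, sets a background for low levels. In WT, 7 of the genes (Izumo1, Izumo2, Izumo3, Spaca3, Spaca4, Spaca6 and Eqtn) had in SP-like cells between 3.02% and 4.22% of their CPM in empty barcodes. Dcst1 had 9.89% in the same cells. Izumo4 had 128% in WT, 130% in KO and 126% in KI. In transition cells of WT the same 7 genes had between 19.1% and 53.9% of their CPM in empty barcodes, Dcst1 had 118% and Izumo4 191%. The part of free RNA and of doublets in the levels of transition cells was not tested. Somatic cells, which should lack the genes, had 121 CPM of Spaca3 and 176 CPM of Izumo2 in WT, above the levels in SP-like cells. Thinned to 2000 UMIs per cell, which left out 231 of the SP-like cells and 115 of the somatic cells of WT, a UMI of Izumo4 was found in 41.2% of SP-like and 20.8% of somatic cells. Unthinned, at medians of 10399 and 1550 UMIs, the shares were 72.5% and 25.1%. For Spaca3 the thinned share was 6.98% of SP-like against 20.8% of somatic cells. Free RNA can be a larger part of the shallower somatic cells, which thinning does not change. The comparison therefore cannot decide whether Spaca3 was above background in SP-like cells.

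In SP-like cells 6 of the 10 genes were at least 1.5-fold lower in KI than in WT and 0 higher. Among the 4 with a mean of at least 10 CPM, 3 were lower, namely Izumo2, Spaca3 and Spaca4. Each was below 10 CPM in KI and reached that mean only through WT and KO. Over all such genes 3.15% were lower and 0.809% higher, but a count favoured by the filter cannot be judged against these shares. Izumo2 had 15.3 CPM in WT against 10.9 in KO and 3.88 in KI, and Spaca4 had 17.3, 16.9 and 6.27 CPM. Izumo4 had 288 CPM in WT against 299 in KO and 250 in KI. SP-like cells had a median of 10399 (WT), 18979 (KO) and 41062 (KI) UMIs, and for Izumo2 the level in SP-like cells was 3.13% (WT), 3.06% (KO) and 0.930% (KI) of that in empty barcodes. Thinned to 2000 UMIs, a UMI of Izumo1 was found in 1.19% of SP-like cells of both WT and KI, and one of Izumo3 in 2.67% and 2.86%, whereas for Spaca3 the shares were 6.98% and 2.39%. The part of free RNA in the lower levels of KI was not tested.

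Izumo4 encodes the member of the family that lacks a membrane anchor. It had 288 CPM in SP-like cells of WT, 429 CPM in transition cells, 356 CPM at stage 1, 285 CPM at stage 2 and 141 CPM at stage 3. In KO the values were 299, 379, 283, 189 and 69.2 CPM, and in KI they were 250, 381, 247, 167 and 65.2 CPM. The level was highest in transition cells and lower at each later stage in every library. From stage 1 to stage 3 WT had a log2 ratio of -1.33 (interval -1.47 to -1.19), KO of -2.02 (-2.18 to -1.86) and KI of -1.91 (-2.11 to -1.71).

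The next comparison asks what becomes of the transcripts in ES-like cells, which were found in number only in WT. From stage 3 to stage 5 of WT, 7 of the 10 genes were at least 1.5-fold lower and none at least 1.5-fold higher. Over all genes with a mean of at least 10 CPM, 69.2% were lower and 7.26% higher, so the count of lower genes is near the background. The median log2 ratio was -3.72 for the 10 genes and -1.61 over all genes. Spaca3 went from 790 CPM (760 to 820) at stage 3 to 99.9 CPM at stage 4 and 24.6 CPM (20.8 to 29.0) at stage 5. Spaca4 went from 938 to 139 and 29.9 CPM, and Eqtn from 245 to 30.1 and 6.92 CPM. Izumo1 had 174 CPM at stage 3 and 10.1 CPM at stage 5, and Spaca6 had 109.5 and 7.93 CPM.

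Izumo2 stayed. It had 644 CPM (617 to 672) at stage 3, 549 CPM at stage 4 and 693 CPM (672 to 714) at stage 5. Thinned to 2000 UMIs, 70.9% of stage 5 cells and 22.2% of somatic cells had a UMI of it, and 95.4% and 23.5% unthinned. Izumo3 had 191, 149 and 136 CPM, a log2 ratio of -0.48 (-0.63 to -0.33) from stage 3 to stage 5. With the packaging genes and mitochondrial genes taken out of the totals, Izumo3 had 211 CPM at both ends and Izumo2 rose from 711 to 1073 CPM. With TMM size factors the log2 ratio from stage 3 to stage 5 was 1.81 for Izumo2 and 1.21 for Izumo3, and with median-of-ratios size factors 1.92 and 1.33, so whether they stayed level or rose depends on the scaling. With halved stage limits they were at -0.10 and -0.69, the latter past 1.5-fold lower. Tmem95 had 2 UMIs at stage 3 and 1 at stage 5, too few to place it in either group.

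The step from RS-like to ES-like cells was steep. Between packaging shares of 8 to 16% and of 16 to 24%, the level of Spaca3 in WT went from 719 to 179 CPM and that of Eqtn from 220 to 59.5 CPM. Izumo2 had 640 and 460 CPM over the same step and 608 CPM at 24 to 32%. At stage 5 the levels of Spaca3, Spaca4, Eqtn and Izumo4 were 4.38%, 5.24%, 5.03% and 4.22% of those in empty barcodes, and that of Izumo2 was 142%. At these packaging limits no counterpart exists in KO or KI, where no cell or 4 cells reached stage 4. Clusters computed here from the called cells did not separate the libraries as fully. A cluster with 74.1% ES-like cells held 763 WT, 190 KO and 79 KI cells. Another with 85.6% ES-like cells held 1157 WT, 14 KO and 1 KI cells.

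**Figure D2:**
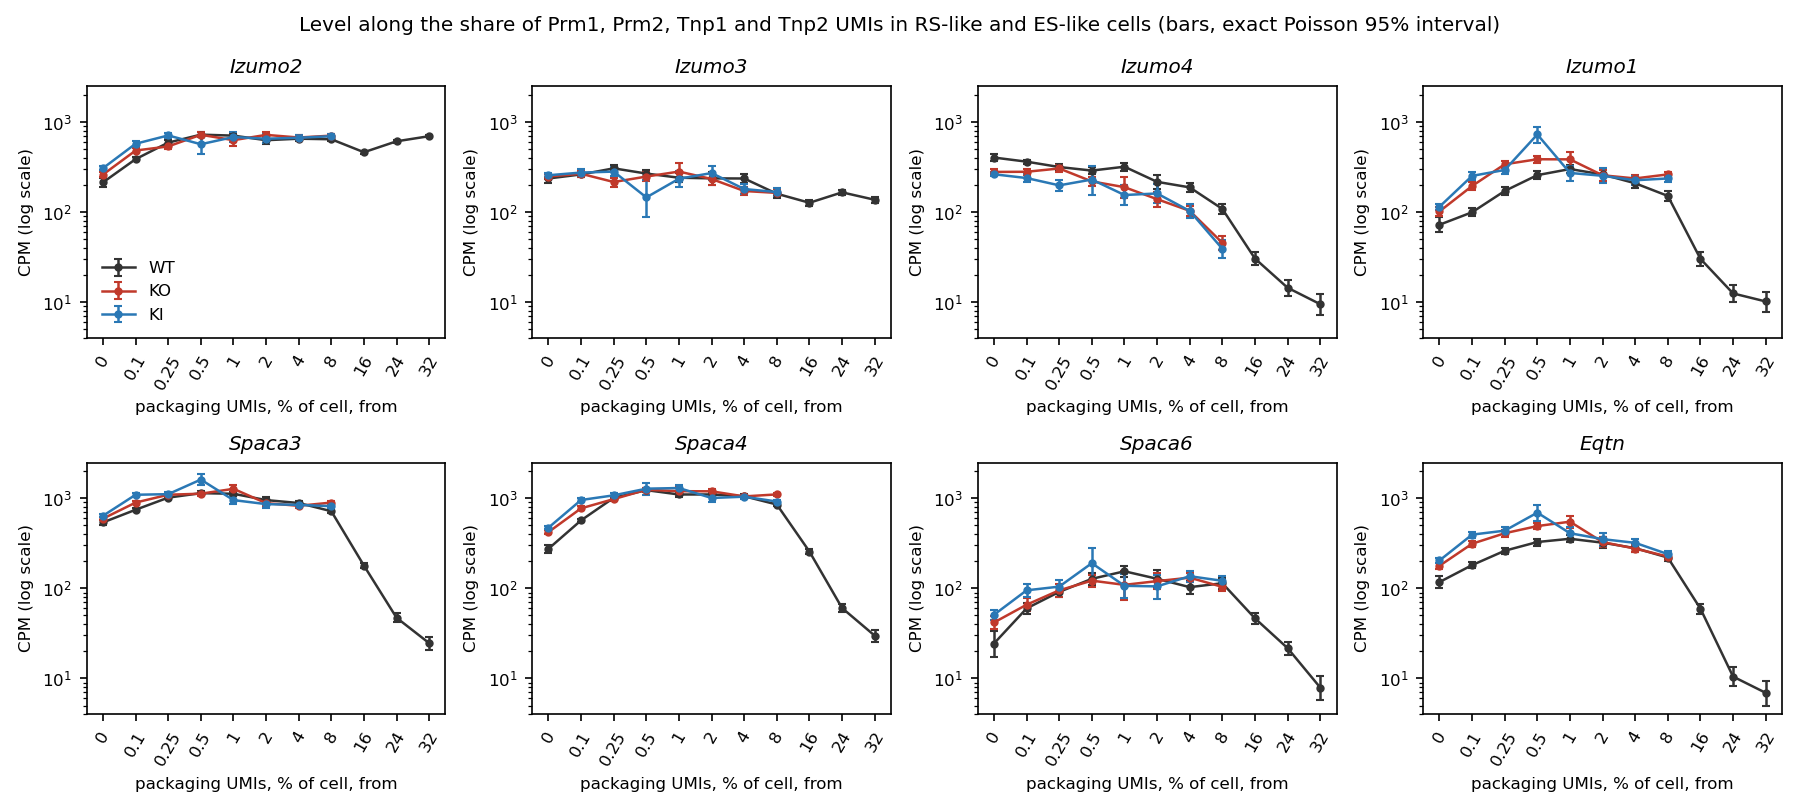
Level of 8 of the genes (CPM, log axis) along bins of the packaging share in RS-like and ES-like cells, each bin marked by its lower bound in percent; bars are exact Poisson 95% intervals and bins of under 20 cells are left out. Izumo2 and Izumo3 are still at 693 and 136 CPM in the last bin of WT, and the other 6 drop beyond 16%.

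The main comparison asks whether RS-like cells of KO and KI differ from WT in these genes. Over the summed RS-like cells, the 10 genes had a median log2 ratio to WT of 0.075 (KO) and -0.049 (KI), against 0.045 and 0.10 over all genes. With TMM size factors the medians were -0.027 and -0.19 for the 10 genes and -0.055 and -0.038 for all genes. The libraries differed in packaging share. The lowest bin (under 0.1%) held 10.4% of the RS-like UMIs of WT, 22.7% of those of KO and 41.4% of those of KI. The next bin (0.1 to 0.25%) held 27.4%, 15.5% and 13.1%. In SP-like cells the median packaging share was 0.170% (WT), 0.0380% (KO) and 0.0195% (KI). The part of free packaging transcripts in these bins was not tested. Weighted to the WT shares of the packaging bins (called the stage mix of WT below), the medians of the 10 genes were 0.16 in KO and 0.27 in KI. The direction in KI turned in that weighting. In that weighting 3 genes were at least 1.5-fold higher in each mutant, and 0 were lower in KO and 1 in KI. The share over all genes was not computed in that weighting, so these counts have no background. In KO 1 gene was at least 1.5-fold lower (Izumo4) and 1 at least 1.5-fold higher (Tmem95), and in KI 1 was lower (Izumo4) and 0 higher. Over all 8421 genes with a mean of at least 10 CPM, 10.0% were lower and 14.2% higher in KO, and 8.98% lower and 14.7% higher in KI. With 10 genes the counts without that weighting are near the background. Between KI and KO, 0 of the 10 genes were past the limit, against 1.59% lower and 1.37% higher over all genes.

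In RS-like cells Izumo4 had 4212 UMIs (WT), 2784 (KO) and 2280 (KI), or 289, 191 and 190.1 CPM. The log2 ratio to WT was -0.59 (-0.66 to -0.53) in KO and -0.60 (-0.68 to -0.53) in KI, close to the fold limit in both. With the stage limits doubled it was 0.14 in KO and 0.13 in KI, and with clusters recomputed here from the called cells in place of the marker classes 0.30 and 0.13. Doubled limits bring WT cells with packaging shares of 16 to 32% into the sum, a range with 0 cells in KO and 4 in KI. The difference was therefore looked at within stages.

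At stage 3, Izumo4 had 474 (WT), 358 (KO) and 217 (KI) UMIs, and the 3 levels were 141 CPM (129 to 154), 69.2 CPM (62.2 to 76.8) and 65.2 CPM (56.8 to 74.5). WT lay above both mutants with no overlap of the counting intervals. The log2 ratio was -1.02 (-1.21 to -0.82) in KO, a 2.02-fold lower level, and -1.10 (-1.33 to -0.87) in KI, a 2.15-fold lower level. The ratio of KI to KO was -0.08 (-0.32 to 0.15), so the mutants did not differ beyond counting error. With the stage limits doubled, which brings in the WT cells named above, the ratio was 0.41 in KO and 0.15 in KI. At the same stage 18.6% of 7158 genes were 1.5-fold lower and 21.3% higher in KO, and 19.3% and 23.2% in KI. Of the 9 members with a mean of at least 10 CPM at this stage, Izumo4 was the 1 lower in each mutant and 0 were higher. With doubled limits 0 of the 9 were lower and 6 higher in each mutant, namely Izumo1, Eqtn, Spaca3, Spaca4, Spaca6 and Dcst1. Their log2 ratios ran from 1.22 for Spaca6 to 2.71 for Izumo1 in KO and from 1.4 to 2.51 for the same genes in KI. The shares over all genes given here are those of the main limits. None was computed at doubled limits, so these counts have no background. Thinned to 2000 UMIs per cell, Izumo4 was at -0.61 in KO and -0.57 in KI, the latter short of 1.5-fold.

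In finer bins of the packaging share, Izumo4 was below WT in every bin up to 16%. Between 4 and 8% it had 187 CPM in WT against 103 CPM in KO and 102 CPM in KI, and between 8 and 16% it had 108, 45.3 and 38.9 CPM. Between 0.25 and 0.5% the log2 ratio in KO was -0.05 (-0.23 to 0.12), and between 0.5 and 1% that in KI was -0.33 (-0.86 to 0.20), both within counting error. Since the bins rest on packaging transcripts of the same libraries, a difference in level and a shift in stage cannot be told apart.

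In younger RS-like cells Izumo1, Eqtn and Dcst1, and in the lowest bins several further members, were higher in the mutants. The study itself reported lower Eqtn in RSs of KO and KI, in its RS cluster and by quantitative PCR of isolated RSs. Its discussion also names Spaca3 and Spaca4 as down-regulated. Its cells, scaling and reference gene differ from those used here, and the source of the opposite direction was not tested. At stage 1 the log2 ratio of Izumo1 was 0.64 (0.52 to 0.76) in KO and 0.56 (0.43 to 0.68) in KI, and that of Eqtn was 0.48 (0.38 to 0.58) and 0.53 (0.44 to 0.63). For Dcst1 the KO ratio was 0.58 (0.40 to 0.75) and the KI ratio 0.52 (0.35 to 0.69). Of these ratios, that of Izumo1 in KO was past 1.5-fold. With Tmem95, 2 of the 10 genes were past it at stage 1 of KO and 0 of KI, all higher, where 6.93% of all genes were lower and 14.1% higher in KO, and 8.66% and 15.5% in KI. With packaging shares of 0.1 to 0.25%, Eqtn had 181 CPM in WT against 313 in KO and 395 in KI, and Izumo1 had 99.1, 194 and 251 CPM. In the same bin the log2 ratios in KO and KI were 0.79 and 0.84 for Dcst1, 0.44 and 0.75 for Spaca4 and 0.32 and 0.57 for Izumo2. Below 0.1% they were 0.75 and 1.03 for Spaca6 and 0.61 and 0.78 for Spaca4. Izumo3 was at 0.03 and 0.07 between 0.1 and 0.25%, so not every member was higher there. With shares of 2 to 4% the ratio of Eqtn was 0.02 (-0.24 to 0.28) in KO and 0.13 (-0.17 to 0.43) in KI, and that of Izumo1 was -0.03 (-0.32 to 0.27) and -0.05 (-0.39 to 0.30). Dcst1 kept no direction over the later bins. In KI it was at -0.89 (-1.58 to -0.21) for 1 to 2%, -0.75 (-1.50 to -0.0014) for 2 to 4%, 0.03 (-0.56 to 0.61) for 4 to 8% and 0.52 (0.03 to 1.0) for 8 to 16%. In KO it was at 0.11 (-0.48 to 0.70), -0.56 (-1.15 to 0.044), 0.61 (0.12 to 1.11) and 0.10 (-0.37 to 0.58) in the same bins. Between 8 and 16%, Izumo1 was again higher, at 150 CPM (WT), 261 CPM (KO) and 235 CPM (KI), whereas Eqtn was not. The packaging share in SP-like cells, a measure of free packaging transcripts, had a median of 0.170% in WT, 0.0380% in KO and 0.0195% in KI, and its part in these ratios was not tested.

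At stage 3, the WT level of Izumo1 was 174 CPM (161 to 189), the KO level 250.1 CPM (237 to 264) and the KI level 231 CPM (215 to 248). KO and KI both lay above WT, with log2 ratios of 0.52 (0.38 to 0.66) and 0.40 (0.25 to 0.56), short of 1.5-fold. The size depends on the stage limits, since with doubled limits the ratios were 2.71 and 2.51 and with halved limits 0.10 and 0.04. With barcodes of high UMI totals only they were 0.74 and 0.59, past 1.5-fold. Eqtn had 245, 247 and 273 CPM at that stage. Dcst1 had 29.2 CPM in WT against 37.5 in KO and 36.7 in KI, with intervals that overlapped, and a log2 ratio of 0.35 (0.01 to 0.69) in KO.

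Summed over RS-like cells, the ratios of Spaca3, Spaca4, Izumo2, Izumo3 and Spaca6 lay near 0, although some of their single bins did not, as given for the lowest bins and as Izumo3 in KI between 0.5 and 1% (-0.88, -1.53 to -0.22). The log2 ratio over RS-like cells was 0.01 (-0.03 to 0.04) in KO and -0.06 (-0.10 to -0.02) in KI for Spaca3, and 0.11 (0.08 to 0.15) and -0.08 (-0.12 to -0.04) for Spaca4. Izumo2 had 0.04 (-0.0049 to 0.085) in KO and -0.06 (-0.11 to -0.01) in KI, and Spaca6 had -0.02 (-0.13 to 0.09) and -0.04 (-0.16 to 0.07). Izumo3 had -0.18 (-0.25 to -0.11) in KO and -0.06 (-0.14 to 0.01) in KI. All 10 of these intervals lay within the fold limit at the limits used here. With doubled stage limits Spaca3 was at 0.70 in KO and 0.63 in KI and Spaca4 at 0.76 and 0.56, so 3 of these 4 values passed it.

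**Figure D3:**
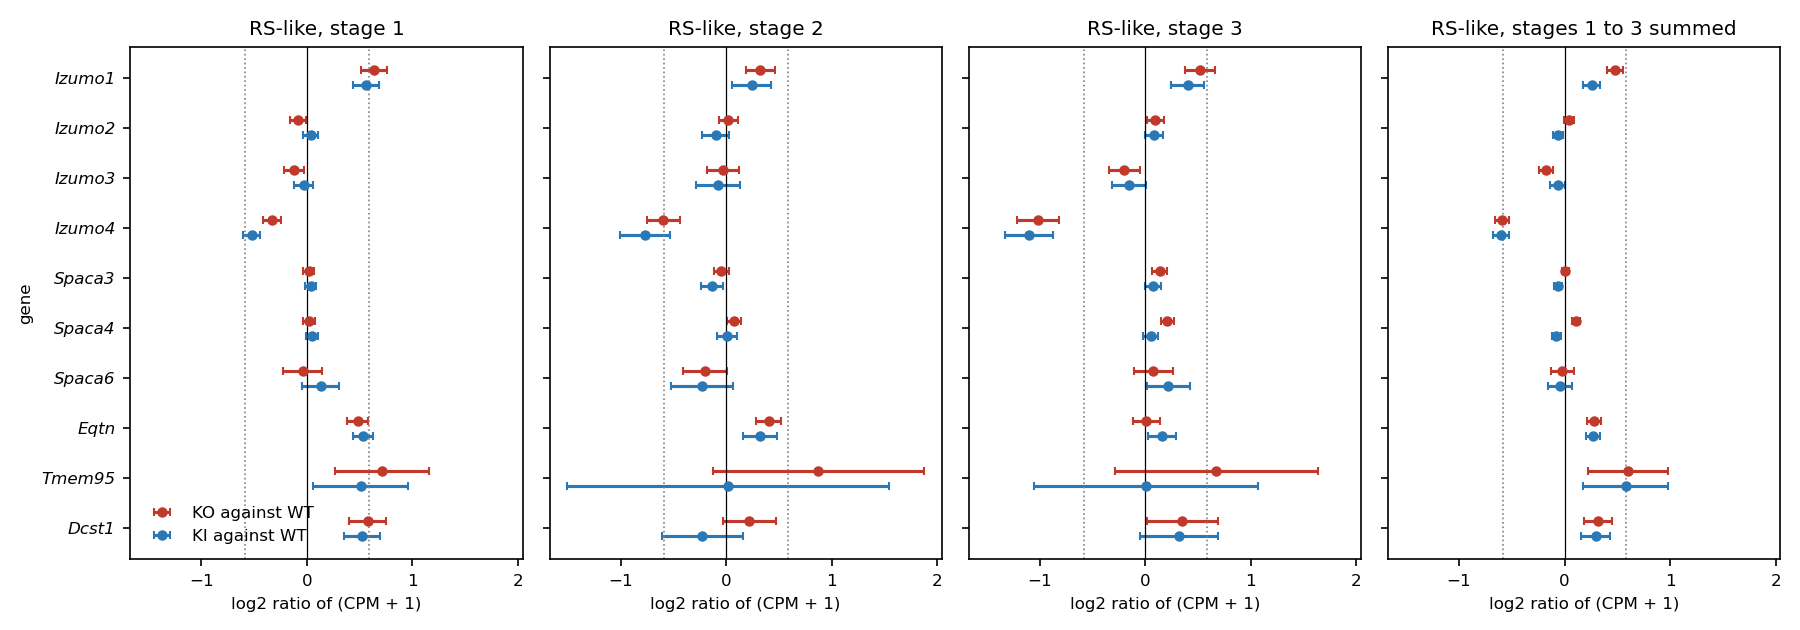
Log2 ratio of (CPM + 1) of KO and KI against WT for the 10 genes in RS-like cells of stages 1, 2 and 3 and in their sum; bars are 95% counting intervals and dotted lines mark 1.5-fold. Izumo4 lies left of 0 in each panel and reaches -1.02 and -1.10 at stage 3, and Tmem95 has the widest bars.

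Among 16 other genes of fusion and of the acrosomal membrane, 15 had a mean of at least 10 CPM at stage 3, and Izumo1r, which encodes JUNO of the egg, had 0 UMIs in all classes. In KO 5 of the 15 were at least 1.5-fold lower and 1 higher, and in KI 4 were lower and 1 higher, beside the background at stage 3 given for Izumo4. The 1 higher gene, Cd81, reached that mean only through KO and KI. The shares of this list, at 33.3% and 26.7% lower, stand beside that background, and the list is small.

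4930451I11Rik, or Fimp, a fusion factor of the sperm membrane, had 338 CPM in WT against 51.2 in KO and 78.1 in KI at stage 3. The log2 ratio was -2.70 (-2.89 to -2.51) in KO and -2.1 (-2.29 to -1.91) in KI, so KO and KI were far below WT and KI lay above KO by 0.60 (0.36 to 0.84). At stage 1 it had 262 CPM in WT against 171 in KO and 203 in KI. At stage 2 it had 402 CPM in WT, and 184 and 187 CPM in the mutants.

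Spesp1, a protein of the equatorial segment, was, like Izumo4, already present in SP-like cells, with 212 CPM in WT against 212 in KO and 205 in KI. At stage 3 it had 133 CPM in WT against 48.7 in KO and 38.8 in KI, with log2 ratios of -1.43 (-1.65 to -1.21) and -1.75 (-2.03 to -1.48). At stage 1 its levels were 362, 386 and 372 CPM, and at stage 2 they were 307, 280 and 287 CPM, so the libraries lay apart at stage 3. With doubled stage limits the ratio was -0.15 in KO, short of 1.5-fold, and -1.94 in KI.

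1700029I15Rik, or Frey1, encodes a protein of the endoplasmic reticulum that holds IZUMO1 during its synthesis. At stage 2 it had 958 CPM in WT against 512 in KO and 475 in KI. At stage 3 it had 679 CPM in WT against 390 in KO and 371 in KI. The log2 ratios were -0.80 (-0.89 to -0.71) and -0.87 (-0.97 to -0.77). Izumo1 itself was at 174, 250.1 and 231 CPM in these cells. Tmem81, a partner of IZUMO1 and SPACA6 on the sperm, had 56.5, 29.0 and 33.6 CPM, and Cd46, a complement regulator of the acrosomal membrane, had 249, 144 and 179 CPM. With doubled stage limits the ratios of 1700029I15Rik, Tmem81 and Cd46 turned to above 0 in both mutants, that of Cd46 to 1.04 in KO and 1.27 in KI, whereas 4930451I11Rik stayed past 1.5-fold lower in both. Thinned to 2000 UMIs, Tmem81 in KI was at -0.08 and Cd46 in KI at 0.06, so neither was lower there. In earlier bins Cd46 was above WT, at 3.06 (2.41 to 3.72) in KO between 0.25 and 0.5% and at 3.42 (3.0 to 3.85) in KI between 0.5 and 1%. Tmem81 was above WT between 0.1 and 0.25%, at 0.58 (0.20 to 0.96) in KO and 1.52 (1.16 to 1.87) in KI. Between 8 and 16% it was below WT, at -0.97 (-1.40 to -0.54) and -1.23 (-1.75 to -0.71). 1700029I15Rik was below WT in both mutants in each bin from 1 to 16%. In KI it was above WT between 0.1 and 0.25%, at 0.22 (0.10 to 0.34).

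The fusion factors Llcfc1 (Sof1) and Dcst2 did not pass 1.5-fold at the limits used here. Llcfc1 had 579 CPM in WT against 568 in KO and 525 in KI, and thinned to 2000 UMIs it was at a log2 ratio of -0.59 in KI, just past the limit. Dcst2 had 25.3, 31.3 and 27.0 CPM, but was at 2.1 in KO and 2.02 in KI with doubled stage limits and at -0.17 and -1.31 thinned, so no direction can be given for it. Spaca1, Spaca5, Spaca7, Spaca9, Tmem190 and Lypd4, all of the acrosome or the sperm surface, lay between -0.27 and 0.19 in both mutants. With doubled stage limits 5 of these 6 genes were past 1.5-fold higher in both mutants, a count for which no share over all genes was computed. Spaca1 was at 2.40 in KO and 2.16 in KI, Spaca5 at 1.88 and 1.92, and Lypd4 at 1.70 and 1.64. Tmem190 was at 1.64 and 1.48, Spaca7 at 0.95 and 0.71, and Spaca9, short of the limit, at 0.46 and 0.42. Spaca5 was past 1.5-fold lower with halved limits (-0.89 in KO and -0.77 in KI) and thinned (-1.29 and -1.31), as was Tmem190 thinned in KI (-0.76). Lypd4 resembled Izumo4 in SP-like cells (649 CPM in WT), but had 799 CPM in WT against 896 in KO and 886 in KI at stage 3.

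Cd81, a tetraspanin known in fusion from the egg, was the higher gene in both mutants, with 3.87 CPM in WT against 17.6 in KO and 16.5 in KI. It reached the mean of 10 CPM only through the mutants, so the filter favoured its place among the higher genes. In somatic cells it had 378 CPM in WT against 532 in KO and 720 in KI. The Sertoli and macrophage markers at stage 3, given above, summed to higher levels in both mutants than in WT. The part of somatic RNA in the ratio of Cd81 was not tested. Cd9, its close relative, had 35.7, 51.8 and 51.4 CPM, short of 1.5-fold, but was past it with doubled stage limits (1.81 in KO and 1.93 in KI) and thinned (1.17 and 1.3).

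**Figure D4:**
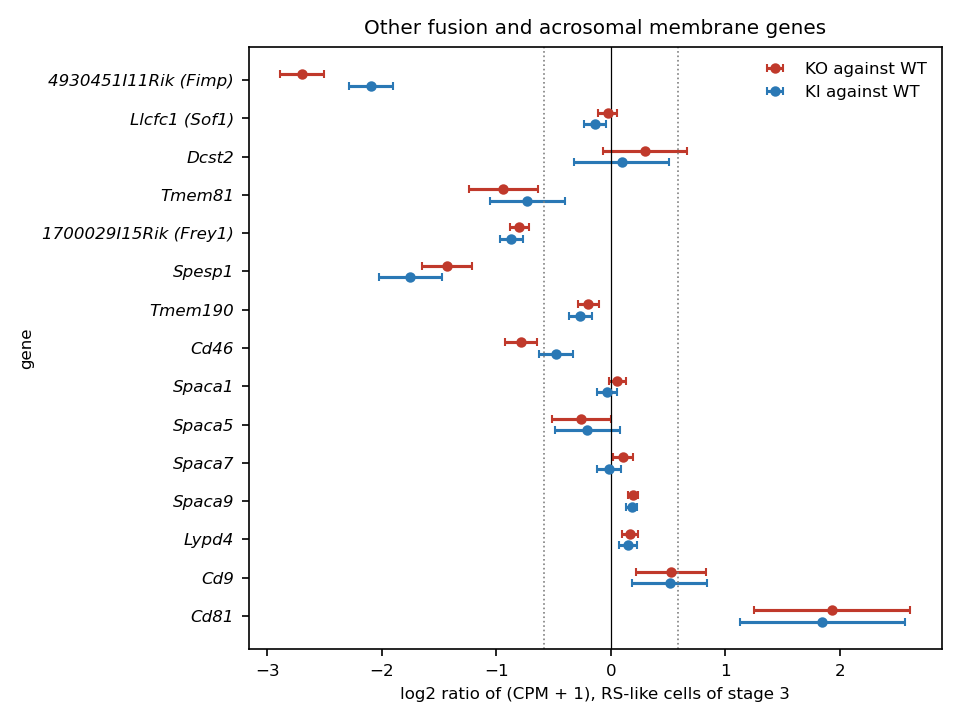
Log2 ratio of (CPM + 1) of KO and KI against WT at stage 3 for the 15 further genes with a mean of at least 10 CPM; bars are 95% counting intervals and dotted lines mark 1.5-fold. 4930451I11Rik (Fimp), Spesp1, 1700029I15Rik (Frey1) and Tmem81 lie left of the lower line in both mutants, and Cd81 lies to the right.

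The genes most like each member were sought by the correlation of log2(CPM + 1) over 20 points, the germ cell classes of the 3 libraries, which share libraries and depth. The closest were Fndc11 and Sun5 for Izumo1 (Pearson's r = 0.993 and 0.991), Capza3 and Fam205c for Izumo2 (0.998 and 0.997) and 4930584F24Rik and Ica1 for Izumo3 (0.995 and 0.994). For Izumo4 they were Dynlt1a and Rwdd2a (0.99 and 0.988), for Spaca3 Lyzl6 and 1700113H08Rik (0.995 each) and for Spaca4 Pla2g10 and Spata46 (0.995 and 0.993). Spaca6 was most like Aptx and Pla2g10 (0.995 and 0.993), Eqtn most like Best1 and Spaca4 (0.993 and 0.99) and Dcst1 most like Odf3l1 and Fthl17a (0.99 and 0.988). Tmem95 had the loosest neighbours, Foxp2 and Nav3, at 0.948 and 0.939. Sun5 is a marker used for the classes.

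Among the members, Spaca4 and Eqtn were the most alike (r = 0.99), and Izumo4 the least like the rest. Its r was -0.19 with Izumo2, 0.068 with Izumo3 and 0.22 with Izumo1. The 4 Izumo genes thus differed in course, with Izumo1 low in ES-like cells, Izumo2 and Izumo3 still there, and Izumo4 present before the others.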

How the data were processed

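The deposited files hold UMI counts per gene for all barcodes of the 3 libraries, made by the authors with mm10 (GRCm38), neither normalized nor called as cells. The file header names Cell Ranger 4 and the submitters' processing notes name Cell Ranger 2.1.1. Cells were called against empty barcodes (ranks 45000 to 90000), with over 500 genes and under 10% mitochondrial UMIs. Classes were gated on marker UMIs: somatic markers of at least 0.2%, early germ markers of at least 0.1%, and a 2-fold excess of spermatocyte or RS markers. Gate limits were set after marker levels were seen. The members and lists were chosen with earlier results of these data known. Doublets were kept. Near the packaging limits (within 1.25-fold) lay 1865 cells (WT), 523 (KO) and 121 (KI). Ratios are log2 of (CPM + 1) of class sums with delta-method counting intervals, sums have exact Poisson and shares exact Clopper-Pearson intervals, and 1.5-fold stands in for a call. The ratio was tested on simulated data for KO against WT over 8100 genes, and 100% of 50 genes changed 2-fold passed the limit. Both sides were drawn from the WT profile with counting error alone. The simulation therefore checks the calculation and not differences between libraries in stage or free RNA. Named genes are all members, all further fusion and acrosomal genes of a list, and the 2 genes most like each member among those reaching 50 CPM. Python 3.11.15, scanpy 1.11.5, R 4.3.3 and Seurat 5.3.0 were used. Alternatives changed scaling, pseudocount, cell calling, filters, depth, doublets, stage limits and classes.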

Additional observations from a re-analysis of the deposited data

How the results depend on the processing

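No paired analysis was possible because each genotype has 1 library. The rise of the genes from SP-like to RS-like cells kept its direction under every alternative run. The median log2 ratio, 5.09 (WT), 5.21 (KO) and 6.08 (KI), was 3.81, 3.91 and 4.21 with 10 CPM added, 4.64, 3.47 and 4.86 without cell calling and 4.30, 4.26 and 5.23 with cells thinned to 2000 UMIs. It was 5.51 in KO and 6.64 in KI with 0.1 CPM added, and 5.66 in WT and 5.48 in KO with barcodes of high UMI totals only. It was 5.36 in WT with cells of at least 2000 UMIs, 4.74 in WT with doubled stage limits, 4.48 in WT and 6.41 in KI with clusters recomputed here (not the authors' own), and 5.49 in KO with the cells of highest Scrublet score removed. Scrublet itself marked 2.58% (WT), 0.123% (KO) and 0.255% (KI) of cells.

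The median against WT in RS-like cells, 0.075 in KO and -0.049 in KI, changed sign with the processing and shows no common direction. It was -0.027 and -0.19 with TMM size factors, -0.039 and -0.20 with median-of-ratios size factors, 0.025 and 0.24 thinned, 0.73 and 0.60 with doubled stage limits, 0.16 and 0.27 with the stage mix of WT and 0.37 and 0.35 with the recomputed clusters. In KO it was also -0.12 without cell calling, 0.12 with high UMI totals only and 0.0021 with halved stage limits. TMM moved the median of all genes from 0.045 to -0.055 in KO and from 0.10 to -0.038 in KI.

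The 1 lower gene in KO became 0 with totals free of packaging and mitochondrial genes, 10 CPM added, no cell calling, thinning, halved or doubled limits, the stage mix of WT, the clusters, a 2-fold limit or no mitochondrial limit. The 1 higher gene in KO became 0 with TMM, median-of-ratios, 10 CPM added, no calling, a stricter minimum of genes, under 5% mitochondrial UMIs, at least 2000 UMIs, thinning, doublet removal, members of at least 10 CPM or a 2-fold limit, and 6, 3 and 4 with doubled limits, the stage mix of WT and the clusters. In KI the 1 lower gene became 0 with 10 CPM added, no calling, thinning, halved or doubled limits, the clusters, a 2-fold limit or shared barcodes left out. The 0 higher genes in KI became 1 with 0.1 CPM added, high UMI totals, halved limits or shared barcodes left out, 4 thinned, 5 with doubled limits, 3 with the stage mix of WT and 4 with the clusters. The further fusion genes lower at stage 3, 5 in KO and 4 in KI, were 1 and 2 with doubled limits and 2 and 2 at 2-fold, and in KI 7 thinned. Shares over all genes past 1.5-fold were computed at the main settings only. The counts under alternatives, here and below, therefore have no background beside them.

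Signs turned with doubled limits, which add WT cells that KO and KI lack: at stage 3 to 0.41 in KO and 0.15 in KI for Izumo4, 1.2 and 0.90 for Tmem81, 0.82 and 0.70 for 1700029I15Rik and 1.04 and 1.27 for Cd46. Of the further genes inside the fold limit, Tmem190 turned to 1.64 and 1.48, Spaca5 to 1.88 and 1.92, and in KI Spaca1 from -0.03 to 2.16 and Spaca7 from -0.02 to 0.71. With values inside the limit at both settings, Llcfc1 in KO turned from -0.03 to 0.13 and Izumo3 from -0.20 to 0.11 in KO and from -0.15 to 0.14 in KI. Past 1.5-fold with no turn of sign were Spaca1 (2.40) and Spaca7 (0.95) in KO, and Lypd4 (1.70 and 1.64), Dcst2 (2.1 and 2.02) and Cd9 (1.81 and 1.93) in both. Spesp1 in KO went from -1.43 to -0.15, short of 1.5-fold. Thinning took Dcst2 to -0.17 and -1.31, Cd9 to 1.17 and 1.3, and in KI Llcfc1 to -0.59, Tmem81 to -0.08 and Cd46 from -0.48 to 0.06. Halved limits took Izumo1 to 0.10 and 0.04 and Tmem81 in KI to -0.38. Of the 9 members of at least 10 CPM at stage 3, the 1 lower and 0 higher in each mutant became 0 and 6 with doubled limits, and thinned the counts were 1 and 1 in KO and 0 and 1 in KI. The 0 higher became 1 with high UMI totals in both and, in KO, with TMM or at least 2000 UMIs. Over RS-like cells doubled limits took Spaca3 to 0.70 and 0.63 and Spaca4 to 0.76 and 0.56. From stage 3 to stage 5 of WT, Izumo3 turned from -0.48 to 1.21 with TMM and 1.33 with median-of-ratios size factors. Over RS-like cells Izumo4 turned to 0.14 and 0.13 with doubled limits and 0.30 and 0.13 with the clusters, where the cause was not tested. At stage 3 the ratio of Izumo4 was below 0 in every other alternative run, and those of 4930451I11Rik and Spesp1 in all of them. Shared barcodes and the mitochondrial limit were added after seeing the data. Depth limits Tmem95 most.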
